A study of Chlorocebus sabaeus with 45 samples.

Results

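The genes described here encode 9 transcription factors by which T cells choose and hold a fate. TBX21, EOMES and ZEB2 act in effector cells, GATA3 in type 2 helper cells, FOXP3 and IKZF2 in regulatory cells, and TCF7, LEF1 and BACH2 in naive and memory cells. They were picked by symbol for their known roles, with earlier results of these data known. Among the 33993 gene symbols of the tables, all 9 were found. All 9 also passed the filter on low values that left 18753 genes for testing. The libraries came from whole blood of 15 juvenile male vervet monkeys (Chlorocebus sabaeus), wild animals from the Caribbean island of St. Kitts, and each animal gave 1 sample on day 0, day 3 and day 14, or 45 in all. On day 0 the animals had just been trapped and were sampled in the field, sedated with ketamine and xylazine. On days 3 and 14 the same animals lived alone in cages under quarantine and were sedated with dexmedetomidine and midazolam. Each animal therefore served as its own control, and no monkeys that stayed in the wild were analysed here. Capture, housing, sedation and elapsed time cannot be told apart in any comparison with day 0. RNA integrity, as the authors list it, was also lower on day 0 than on day 14 in most animals. The comparisons ask how expression in blood differed after short (day 3) and longer (day 14) exposure to relocation and social isolation, and both use the same day 0 samples.

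As background, T-bet, the product of TBX21, and Eomesodermin, the product of EOMES, are related T-box factors that turn on interferon gamma, granzymes and perforin in cytotoxic T cells and NK cells, and T-bet also directs type 1 helper cells. TCF-1, the product of TCF7, and LEF-1 bind DNA for the Wnt pathway and preserve the naive and memory states, while BACH2 represses the genes of effector differentiation. None of these factors belongs to T cells alone: NK cells use T-bet, Eomesodermin and ZEB2, monocytes use ZEB2, and B cells use BACH2.

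Levels are given as FPKM, the fragments of a gene relative to its length and to the fragments of the library, after a further scaling between libraries with TMM factors (trimmed mean of M values). Changes are on the scale of log2(TMM-scaled FPKM + 0.1), later day minus earlier day. They were tested with limma with the animal as a replicate block, and a gene was called at a Benjamini-Hochberg adjusted p-value under 0.05 over all 18753 genes. Libraries held between 13216275 and 31469332 fragments on genes. Over the tested genes the median log2 change without TMM was −0.03 between day 0 and day 3, −0.36 between day 0 and day 14 and −0.35 between day 3 and day 14, against 0.01, −0.02 and −0.02 with it, so changes that involve day 14 are relative to the typical gene. Without TMM these changes are lower for all genes, so that rises are smaller and falls larger than printed. Erythroid markers moved most: all 12 rose on day 14 vs. day 0, with a median of 2.76. The day 0 libraries of animals 7, 11 and 15 stood apart, with summed FPKM of 12 neutrophil markers of 29694, 38913 and 42493, whereas the next highest day 0 library held 10676. The changes of the factors, their ratios and the gene lists were also computed without these 3 animals. The values are given where they change a call or a count of calls that is printed here. The blood did contain T cells by its markers: 9 of 10 pan-T cell genes were found and tested, none was at 0 in all libraries, and their summed level ranged from 245 to 613 FPKM on day 0, 270 to 505 on day 3 and 348 to 585 on day 14. On average over these markers the log2 level by day was 5.04 ± 0.36, 4.98 ± 0.24 and 5.05 ± 0.18 (SD, n = 15 each). Their median log2 change was 0.02 between day 0 and day 3, −0.10 between day 0 and day 14 (−0.53 without TMM), and 0.10 between day 3 and day 14, which turned to −0.28 without TMM. These medians were −0.12, −0.24 and 0.14 without animals 7, 11 and 15.

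On day 3 vs. day 0, 3 of the 9 factors were called, with TBX21 and EOMES up and LEF1 down, where 19.2% of all tested genes were called (10.1% up and 9.01% down). The longer interval from day 0 to day 14 gave 5 of 9, with TBX21 and EOMES up and TCF7, LEF1 and BACH2 down, where 44.0% of all genes were called (23.0% up and 21.0% down). Between day 3 and day 14, 2 of 9 were called, TCF7 and BACH2, both down, where 23.8% of all genes were called (13.9% up and 9.81% down). Read against these backgrounds, the count of 5 is not far from what all genes gave, and the count of 2 is no higher. The count of 3 on day 3 became 1 without the replicate block or without TMM, so it too is not read as a result about the factors. The median log2 change over the 9 factors was 0.00, −0.20 and −0.19 in these comparisons, beside 0.01, −0.02 and −0.02 over all genes. ZEB2, GATA3, FOXP3 and IKZF2 were not called in any comparison, either by limma or by limma voom on fragment counts, and 0 of them had an unadjusted p-value under 0.05. In whole blood, fewer cells of a type and less RNA per cell cannot be told apart, and this holds for every factor below.

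**Figure D1:**
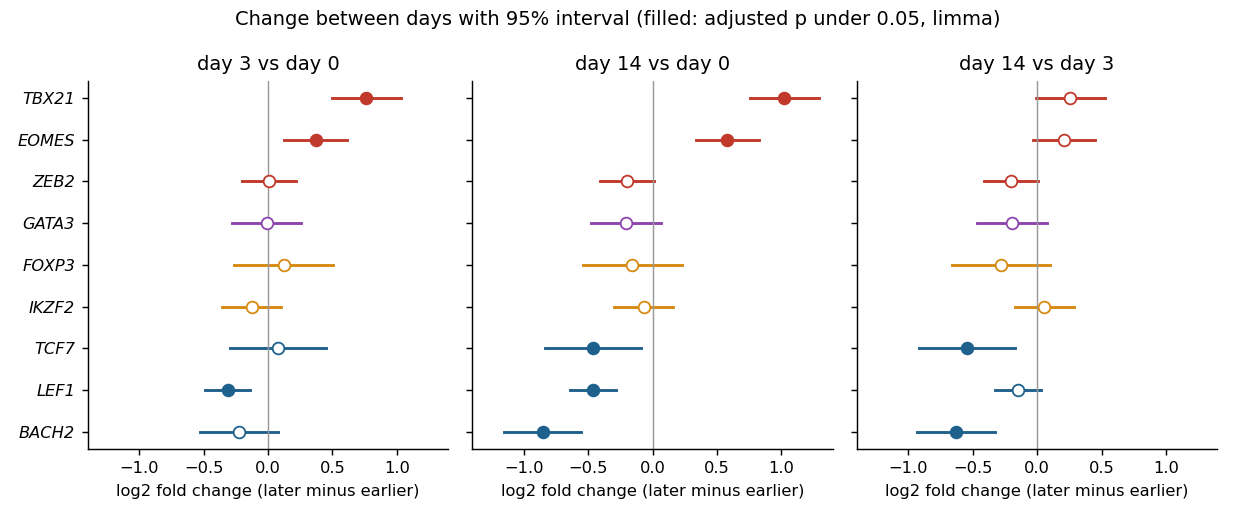
Log2 fold change of each factor (x axis, later minus earlier day) with its 95% interval from limma, in 3 comparisons over 15 animals. Filled points have an adjusted p-value under 0.05: TBX21 and EOMES lie above 0 and LEF1 below it in both comparisons with day 0, and TCF7 and BACH2 lie below 0 on day 14 against either earlier day.

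Among the effector factors, TBX21 rose most. Its lowest, median and highest levels were 2.34, 5.11 and 8.69 FPKM on day 0, 3.87, 8.18 and 25.1 FPKM on day 3, and 6.01, 9.93 and 22.4 FPKM on day 14. The days overlapped, yet 6 of the 15 samples of day 3 and 10 of the 15 of day 14 lay above the highest day 0 sample. On day 3 TBX21 was 1.70-fold higher (log2 change 0.76, SE 0.13, limma adjusted p = 3.89e-04) and rose in 15 of 15 animals, from 0.15 in animal 8 to 1.87 in animal 15. On day 14 it was 2.03-fold higher than on day 0 (log2 change 1.02, standard error 0.13, adjusted p = 8.06e-07) and was higher in 14 of 15 animals, the exception being animal 8. Without TMM this change was 0.60 (adjusted p = 0.00660). The further change from day 3 to day 14 was 0.26 (95% interval −0.01 to 0.52, adjusted p = 0.151), and it was −0.12 without TMM. Without animals 7, 11 and 15 the log2 change was 0.59 on day 3 (adjusted p = 0.00769) and 0.86 on day 14 (adjusted p = 3.49e-05).

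EOMES, the other T-box factor, moved the same way by less. Its lowest, median and highest levels were 3.66, 7.19 and 14.3 FPKM on day 0, 6.03, 9.90 and 24.4 FPKM on day 3, and 5.85, 11.8 and 23.3 FPKM on day 14. Most samples of the later days fell within the day 0 range, with 1 above it on day 3 and 3 on day 14. The log2 change from day 0 to day 14 was 0.58 (standard error 0.12, adjusted p = 2.30e-04 from limma), with 13 of 15 animals higher. It kept its call without animals 7, 11 and 15 (0.42, adjusted p = 0.00596), but without TMM it was 0.16 and not called (adjusted p = 0.447). The rise on day 3 was smaller (0.37, standard error 0.12, adjusted p = 0.0274), was seen in 10 of 15 animals and rested on several of them. It lost its call when animal 2, 4, 7, 11, 14 or 15 was left out (adjusted p between 0.0525 and 0.0713), and without animals 7, 11 and 15 together it was 0.22 (adjusted p = 0.228). It was also not called without TMM (0.33, adjusted p = 0.273), without the replicate block (adjusted p = 0.181) or once RNA integrity was a covariate (adjusted p = 0.0807). From day 3 to day 14 EOMES changed by 0.21 (95% interval −0.03 to 0.45, adjusted p = 0.196), and by −0.17 without TMM.

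ZEB2, a zinc finger repressor that acts beside T-bet in terminally differentiated cells, was not called. Its medians were 25.3 FPKM on day 0, 25.0 FPKM on day 3 and 22.0 FPKM on day 14, and the whole range of the 45 samples ran from 13.9 to 36.8 FPKM. The log2 change was 0.00 on day 3 (95% interval −0.21 to 0.22, or −0.04 without TMM) and −0.20 from day 0 to day 14 (95% interval −0.41 to 0.01, adjusted p = 0.123). The day 14 value was called when animal 2 (−0.25, adjusted p = 0.0483) or animal 10 (−0.25, adjusted p = 0.0404) was left out, and without TMM (−0.62, adjusted p = 0.00156). From day 3 to day 14 ZEB2 changed by −0.20 (95% interval −0.41 to 0.01, limma adjusted p = 0.152), or by −0.58 and called without TMM (adjusted p = 0.00441). Animal 10 had the lowest ZEB2 level on day 0, 14.7 FPKM, and the largest rise on both later days.

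GATA3, the factor of type 2 helper cells, was present at a low level and was not called. The lowest, median and highest levels were 0.922, 1.87 and 3.19 FPKM on day 0, 1.16, 1.80 and 3.95 FPKM on day 3, and 1.15, 1.59 and 2.18 FPKM on day 14. The days overlapped almost completely, although the spread was narrowest on day 14. The log2 change between day 0 and day 14 was −0.21 (95% interval −0.48 to 0.07, adjusted p = 0.216 from limma), with 10 of 15 animals lower. Without animals 7, 11 and 15 it was −0.37 and called (adjusted p = 0.0306), and without TMM it was −0.61 (adjusted p = 0.00341). On day 3 it was −0.01 (95% interval −0.28 to 0.26). From day 3 to day 14 it was −0.19 (95% interval −0.47 to 0.08, limma adjusted p = 0.293), or −0.55 and called without TMM (adjusted p = 0.00952).

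The regulatory factors FOXP3 and IKZF2 were not called either, and they differ greatly in depth. FOXP3 is the factor that defines regulatory T cells, and it rested on between 10 and 161 fragments per library, with a median of 24. A count of 10 has an exact 95% Poisson interval of 4.80 to 18.4 fragments, which covers counting error only. FOXP3 medians were 0.332 FPKM on day 0, 0.315 FPKM on day 3 and 0.277 FPKM on day 14, and the samples of day 3 ranged from 0.0915 FPKM in animal 12 to 1.27 FPKM in animal 8. Its log2 change had wide intervals, from −0.26 to 0.50 on day 3 and from −0.54 to 0.22 from day 0 to day 14 (adjusted p = 0.697 and 0.520), so neither a rise nor a fall within these limits could be told from no change. Its change from day 3 to day 14 was −0.28 (95% interval −0.66 to 0.10, adjusted p = 0.282), or −0.56 and called without TMM (adjusted p = 0.0310). IKZF2, which encodes Helios and is found in regulatory T cells and in NK cells, had at least 1225 fragments in every library. Its medians were 17.5, 15.2 and 16.8 FPKM by day, and its log2 change was −0.13 on day 3 and −0.07 between day 0 and day 14 (95% intervals −0.36 to 0.10 and −0.30 to 0.16), or −0.26 and −0.20 without animals 7, 11 and 15, still not called. Without TMM the day 14 change was −0.49 and called (adjusted p = 0.0153), and the change from day 3 to day 14 turned from 0.06 to −0.32.

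The factors of naive and memory cells were all lower on day 14 than on day 0. BACH2 had the largest fold change of the 3. Its lowest, median and highest levels were 3.13, 9.23 and 17.1 FPKM on day 0, 5.02, 6.96 and 15.4 FPKM on day 3, and 2.75, 4.92 and 9.46 FPKM on day 14. Of the 15 day 14 samples, 9 lay below the lowest day 3 sample, but only that of animal 14 lay below the lowest day 0 sample, which belonged to animal 11. BACH2 fell to 0.553 times its day 0 level by day 14 (log2 change −0.85, SE 0.15, limma adjusted p = 2.98e-05) and was lower in 12 of 15 animals. From day 3 to day 14 it was lower in 15 of 15 animals (log2 change −0.63, standard error 0.15, adjusted p = 0.00376). The change from day 0 to day 3 was −0.23 (95% interval −0.53 to 0.07, adjusted p = 0.303). Both day 14 calls held without animals 7, 11 and 15, at −1.03 (adjusted p = 3.61e-05) and −0.67 (adjusted p = 0.00512), and without TMM the first was −1.27 (adjusted p = 5.73e-06).

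LEF1 was the most abundant of the 9 per length of gene and was already lower on day 3. Its lowest, median and highest levels were 19.7, 40.7 and 56.0 FPKM on day 0, 21.5, 29.0 and 43.2 FPKM on day 3, and 19.7, 26.1 and 44.6 FPKM on day 14. The highest samples of the later days lay below the highest of day 0, the lowest were alike, and the days overlapped. The log2 change was −0.31 on day 3 (SE 0.09, limma adjusted p = 0.0114, lower in 13 of 15 animals) and −0.46 on day 14 (SE 0.09, adjusted p = 8.93e-05, lower in 14 of 15). Animal 11, which had the lowest LEF1 level of day 0, was the only animal higher on day 14. Without animals 7, 11 and 15 the values were −0.40 (adjusted p = 0.00695) and −0.52 (adjusted p = 7.31e-05). The day 3 call was lost without the replicate block (adjusted p = 0.102) and without TMM (−0.36, adjusted p = 0.125). The day 14 value was −0.88 without TMM (adjusted p = 1.12e-05). Between day 3 and day 14 the change was −0.15 (95% interval −0.32 to 0.03, adjusted p = 0.223), or −0.53 and called without TMM (adjusted p = 0.00544).

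TCF7 was also lower on day 14, by a call that several other settings ended. Its lowest, median and highest levels were 8.43, 19.2 and 30.3 FPKM on day 0, 11.9, 16.5 and 74.1 FPKM on day 3, and 9.34, 13.5 and 21.5 FPKM on day 14. The day 3 sample of animal 8 stood far above all others, and the next highest of that day held 35.1 FPKM. The same sample was also the highest of day 3 for GATA3, FOXP3, LEF1 and BACH2. It had the lowest RNA integrity of all samples that the authors list. The log2 change of TCF7 was 0.08 on day 3 (95% interval −0.29 to 0.45), −0.46 from day 0 to day 14 (SE 0.18, limma adjusted p = 0.0388, lower in 13 of 15 animals) and −0.54 between day 3 and day 14 (SE 0.18, adjusted p = 0.0312, lower in 12 of 15). Without animal 8 the last value was −0.41 and not called (adjusted p = 0.0879), the day 3 value was −0.04, and the change from day 0 to day 14 kept its call (−0.45, adjusted p = 0.0266). That change was called in 7 of the 15 fits that left out 1 animal. It lost its call without animal 1, 2, 3, 7, 9, 12, 13 or 14 (adjusted p between 0.0547 and 0.0935), while the change from day 3 also lost it without animal 2 or 9 (adjusted p = 0.0801 and 0.0763). With RNA integrity added as a covariate the values were −0.16 and −0.39 (adjusted p = 0.664 and 0.184). Neither was called without the replicate block (adjusted p = 0.0540 and 0.0519) or without the filter on low values (adjusted p = 0.0669 and 0.0539). Without TMM the values were −0.89 and −0.92 (adjusted p = 0.00112 and 0.00180). Without animals 7, 11 and 15 both were called, at −0.62 (adjusted p = 0.0193) and −0.66 (adjusted p = 0.0190).

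**Figure D2:**
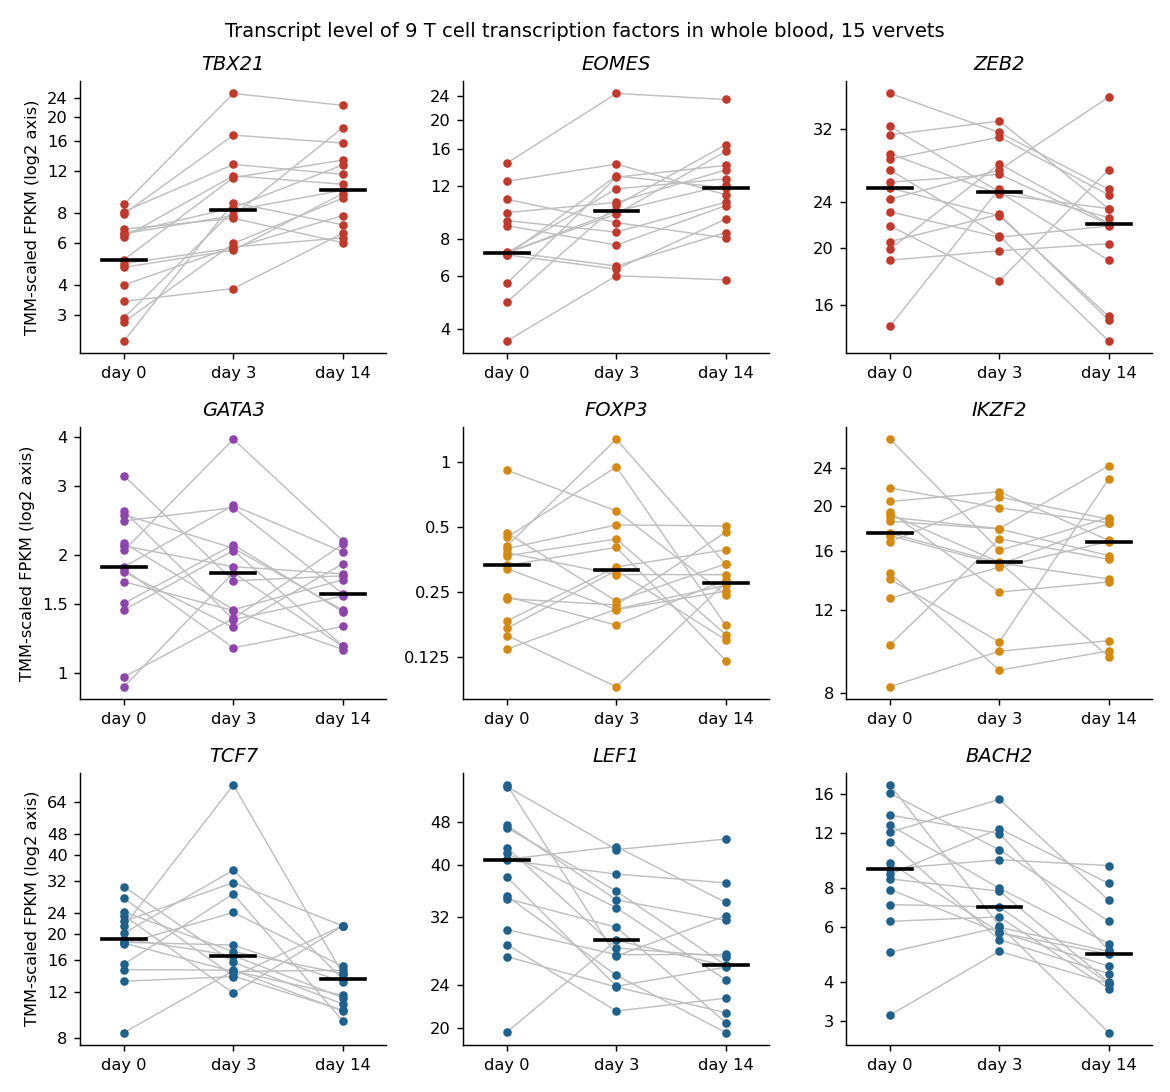
TMM-scaled FPKM (log2 axis, with its own range for each gene) of the 9 factors on days 0, 3 and 14; each point is 1 of 15 animals, gray lines join the samples of an animal and black bars are medians. The median of TBX21 moves from 5.11 to 8.18 and 9.93 and that of BACH2 from 9.23 to 6.96 and 4.92, while the day 3 sample of animal 8 at 74.1 stands alone in the TCF7 panel.

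Most animals shared these directions. By day 14 both T-box factors were higher in 13 animals, TCF7, LEF1 and BACH2 were all lower in 12, and both patterns were present in 10 of the 15. On day 3 the corresponding numbers were 10, 8 and 5. All 3 naive factors were higher in 1 animal on day 14 and in 2 on day 3.

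A call for one factor and none for another does not show that they differ, so the log2 ratio of 6 pairs within each sample was compared between days by a two-sided exact sign-flip permutation test over the 15 animals (n = 15), with p-values adjusted over the 18 tests. These ratios hardly depend on the scaling between libraries. TBX21 gained on EOMES by 0.39 ± 0.34 (SD) on day 3 (exact p = 3.05e-04, adjusted 0.00137, up in 14 of 15 animals) and by 0.44 ± 0.35 on day 14 (exact p = 7.32e-04, adjusted 0.00264, up in 12). Between day 3 and day 14 this ratio changed by 0.05 ± 0.30 (exact p = 0.596, adjusted 0.671). TBX21 gained on ZEB2 by 0.76 ± 0.70 on day 3 (adjusted exact p = 0.00293) and by 1.22 ± 0.65 on day 14, when all 15 animals were up (exact p = 6.10e-05, the smallest this test can give, adjusted 5.49e-04). From day 3 to day 14 the gain on ZEB2 was 0.46 ± 0.54 (adjusted exact p = 0.00989, up in 13 animals). Against day 0, TBX21 thus changed by more than either of the other effector factors.

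The ratio of TBX21 to TCF7 sets the effector program against the memory program and changed most from day 0 to day 14 among the 6 pairs tested. It rose by 0.69 ± 0.99 on day 3 (adjusted exact p = 0.0323, up in 13 of 15 animals), by 1.48 ± 0.64 from day 0 to day 14 (adjusted exact p = 5.49e-04, up in 15) and by 0.80 ± 0.72 from day 3 to day 14 (adjusted exact p = 0.00302, up in 14). Without animals 7, 11 and 15 (n = 12) the day 3 gain was 0.54 and missed the threshold (adjusted exact p = 0.120), while the others were 1.48 ± 0.63 and 0.93 ± 0.60, both up in 12 of 12 animals (adjusted exact p = 0.00293 each). The remaining ratios kept their side of the threshold without these animals. No ratio was computed with RNA integrity as a covariate, under which TCF7 itself changed by −0.16 between day 0 and day 14. The ratio of GATA3 to TBX21, the type 2 against the type 1 factor, decreased by 0.78 ± 0.65, 1.23 ± 0.60 and 0.45 ± 0.52 in the same comparisons (adjusted exact p = 0.00302, 7.32e-04 and 0.0113), with 13, 14 and 13 animals down. TCF7 relative to LEF1 changed by 0.39 ± 0.70 on day 3 (exact p = 0.0490, adjusted 0.0735), by −0.00 ± 0.46 between day 0 and day 14 (adjusted exact p = 0.977) and by −0.40 ± 0.81 from day 3 to day 14 (adjusted exact p = 0.110). FOXP3 relative to IKZF2 changed by 0.25 ± 0.74, −0.09 ± 0.70 and −0.34 ± 1.06 in these comparisons (adjusted exact p = 0.287, 0.677 and 0.289).

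**Figure D3:**
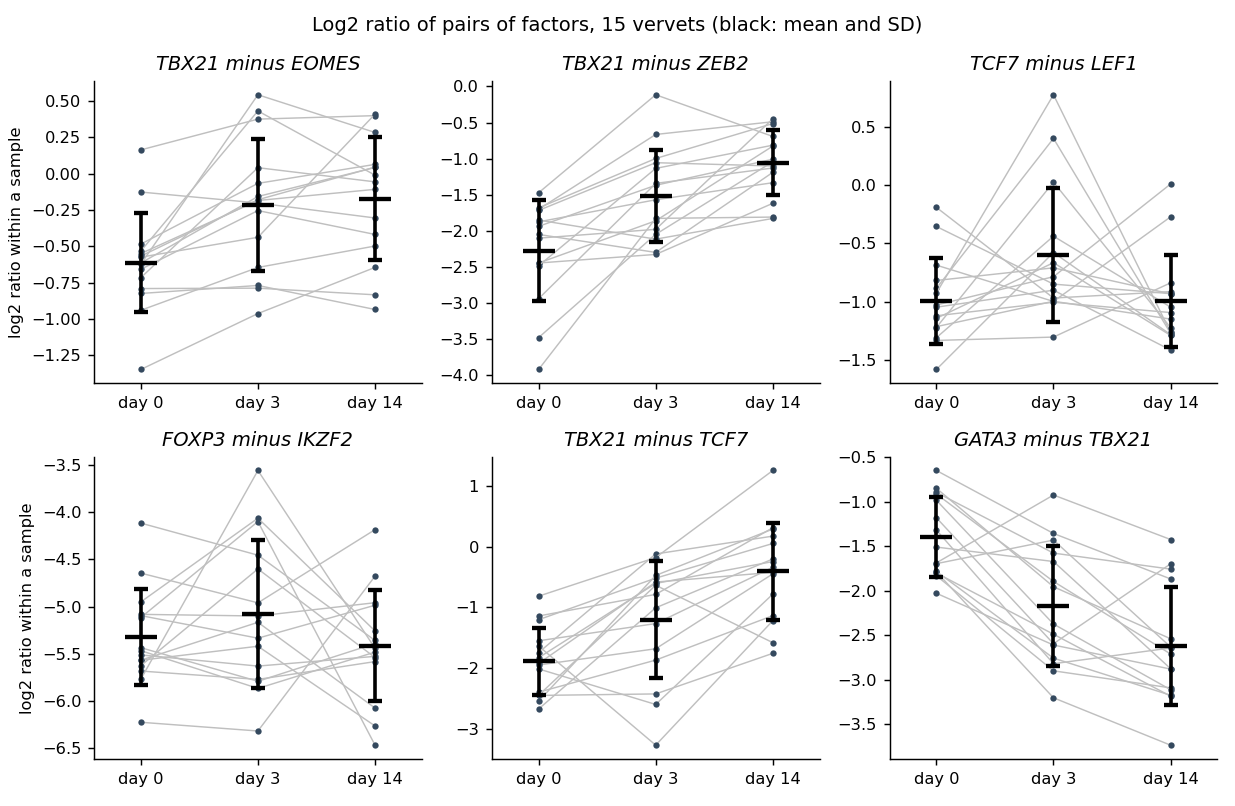
Log2 ratio of 6 pairs of factors within each sample (y axis, log2 units, own range in each panel) on days 0, 3 and 14 for 15 animals; gray lines join an animal's samples and black marks give the mean and SD. TBX21 minus TCF7 moves up in 15 of 15 animals and GATA3 minus TBX21 down in 14 of 15 between day 0 and day 14, while the means of FOXP3 minus IKZF2 change by 0.34 or less between any 2 days.

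NK cells also carry TBX21 and EOMES, and some NK markers rose as well. Of 10 NK markers 9 were found and tested, and none was at 0 in all libraries. Between day 0 and day 3, 3 rose and 0 fell (median log2 change 0.21), and from day 0 to day 14, 4 rose and 0 fell (median 0.44, or 0.02 without TMM), beside 19.2% and 44.0% of all genes called. From day 3 to day 14, 3 rose and 0 fell (median 0.23, or −0.06 without TMM), and 4 rose when animals 7, 11 and 15 were left out. Their summed FPKM ranged from 125 to 646 on day 0, 162 to 351 on day 3 and 186 to 460 on day 14. KLRF1, an activating receptor of NK cells, rose by 1.32 between day 0 and day 14 and KLRD1, the receptor chain CD94, by 1.14 (limma adjusted p = 1.55e-06 and 9.55e-07). On day 3 KLRD1 had risen by 0.45 and IL2RB by 0.50 (adjusted p = 0.0308 and 0.0367), but neither was called without animals 7, 11 and 15 (adjusted p = 0.300 and 0.174), when 1 of the 9 markers rose on day 3 and 5 by day 14. When every sample was centred on the mean of the NK markers, the log2 change of TBX21 was 0.57 on day 3 (adjusted p = 0.00109) and 0.50 on day 14 (adjusted p = 5.14e-04). This mean includes FCER1G and TYROBP, which myeloid cells also carry and which changed by −0.15 and −0.27 on day 14, whereas KLRF1 and KLRD1 rose by more than TBX21, so the values depend on the make-up of the list (both were singled out after their values were seen). On the same scale, where the median of all genes fell by 0.54 on day 14, EOMES changed by 0.18 and 0.06 and was not called (adjusted p = 0.274 and 0.635). When samples were centred on the pan-T cell markers instead, TBX21 rose by 0.82 and 1.01 and EOMES by 0.43 and 0.57, all 4 called.

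B cells carry BACH2, and some of their markers fell on day 14. Of 10 B cell markers 9 were found and tested, with none at 0 in all libraries. Between day 0 and day 3, 0 were called by limma or by voom and 1 had an unadjusted p-value under 0.05 (median 0.22), 4 fell and 0 rose from day 0 to day 14 (median −0.41), and 6 fell and 0 rose between day 3 and day 14 (median −0.65), beside 44.0% and 23.8% of all genes called in the last 2 comparisons (21.0% and 9.81% down). The falls numbered 8 from day 0 to day 14 (median −0.65) and 6 from day 3 (median −0.69) without animals 7, 11 and 15. Their summed FPKM ranged from 89.4 to 663 on day 0, 219 to 586 on day 3 and 174 to 412 on day 14. PAX5, the factor that holds B cell identity, fell by 0.91 and by 1.09 on the log2 scale on day 14 against days 0 and 3 (limma adjusted p = 0.00201 and 0.00172), and FCRL1, a receptor of B cells, by 0.63 and by 0.93 (adjusted p = 0.0142 and 0.00230). Centred on the B cell markers, where the median of all genes rose by 0.44 from day 0 and by 0.60 from day 3, the log2 change of BACH2 on day 14 was −0.39 from day 0 (adjusted p = 0.0248) and −0.00 from day 3 (adjusted p = 0.988). On that scale TCF7 and LEF1 changed by −0.00 and 0.00 from day 0 to day 14, and LEF1 rose by 0.48 from day 3 to day 14 (adjusted p = 0.0173). Centred on the pan-T cell markers, the log2 changes of BACH2, LEF1 and TCF7 between day 0 and day 14 were −0.87, −0.47 and −0.48, all called, and LEF1 was also called from day 3 to day 14 (−0.22, adjusted p = 0.0328). What part NK and B cells had in the results was not otherwise tested.

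**Figure D4:**
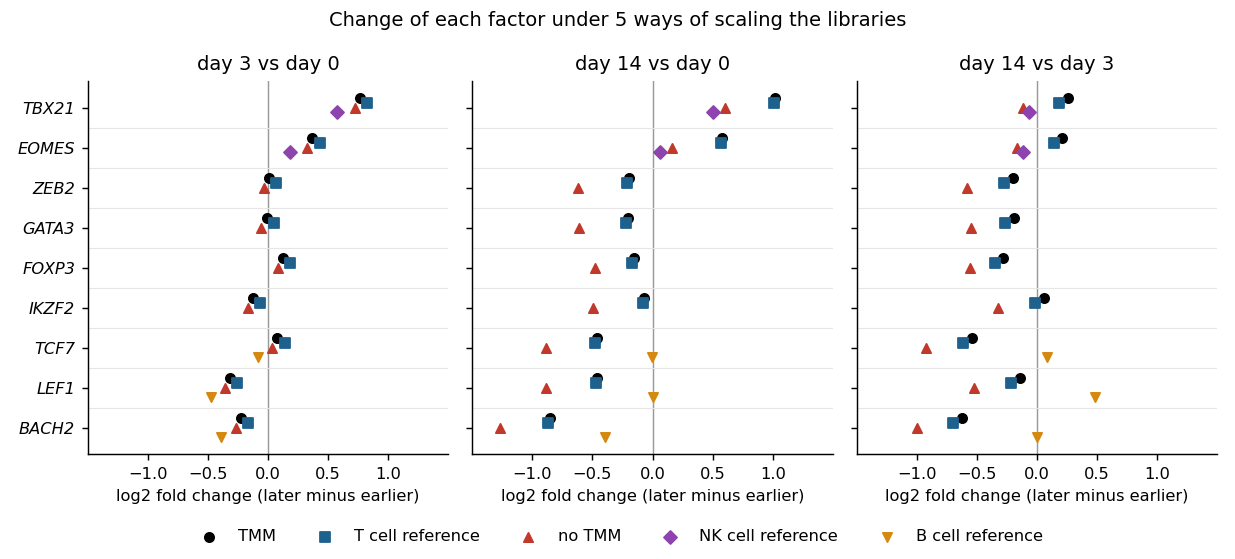
Log2 fold change of each factor (x axis) in 3 comparisons when libraries were scaled by TMM, by the mean of pan-T cell markers, not beyond the library total (no TMM), or, for the genes shown, by the mean of NK or B cell markers. TMM and the T cell reference nearly coincide; without TMM all day 14 changes are lower, so that EOMES moves from 0.58 to 0.16 on day 14 vs. day 0 and TBX21 from 0.26 to −0.12 on day 14 vs. day 3.

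Per length of gene, the order of the medians on day 0 was LEF1, ZEB2, TCF7, IKZF2, BACH2, EOMES, TBX21, GATA3 and FOXP3. IKZF2 stood above BACH2, TBX21 above GATA3, and GATA3 above FOXP3 in all 15 animals, but TCF7 and IKZF2, as well as BACH2 and EOMES, were in this order in only 11. On day 3 the median of BACH2 already lay below those of EOMES and TBX21, and TBX21 was above it in 10 of 15 animals on day 3 and in 13 of 15 on day 14. On day 14 EOMES and TBX21 were in this order in 9 of 15 animals, and TCF7 and EOMES likewise in 9, so these neighbours did not differ beyond the spread between animals. LEF1 was above ZEB2 in 13 animals on day 0 and in 11 on day 14.

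The 9 factors differed in how much of their variation lay between animals. Of the variation in log2 level over the 45 samples, the animal accounted for 50.0% in TBX21, 57.2% in EOMES, 61.3% in IKZF2, 54.6% in LEF1 and 45.8% in ZEB2. For FOXP3, GATA3 and BACH2 it was 43.8%, 43.7% and 40.9%, near the median of 39.3% over all tested genes, and TCF7 was lowest at 31.2%. A term for 15 animals takes a share of the variation whether or not animals differ, so these shares are read only against that median. The day accounted for 34.8% in TBX21, 32.5% in BACH2, 24.4% in LEF1 and 19.9% in EOMES, against a median of 12.5%, but for only 1.67% in IKZF2 and 3.88% in FOXP3. Animal 2 had the highest TBX21 and the highest EOMES level on each of the 3 days. Animal 15 had the lowest EOMES level on each day. Animal 11 had the lowest GATA3, FOXP3, TCF7, LEF1 and BACH2 levels on day 0, and its library was among the 3 with many neutrophil transcripts.

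With the mean of each day taken off, some factors varied together over the 45 samples. These correlations are descriptive, since each animal gave 3 samples and all genes of a sample share its library and cell mix. Pearson's r was 0.78 between LEF1 and BACH2, 0.75 between TBX21 and EOMES, 0.70 between EOMES and IKZF2, 0.70 between GATA3 and TCF7, and 0.69 between TCF7 and BACH2. ZEB2 went against LEF1 (r = −0.52). The r of TBX21 and TCF7 was 0.06 over all samples, while within days 0, 3 and 14 it was 0.46, 0.05 and −0.37.

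The genes most like each factor by the same measure were sought among 9549 genes with a mean of at least 5 CPM, and are a description too. TBX21 was most like GPR153 (r = 0.92), S1PR5 (0.90) and PRF1 (0.89). S1PR5 is the receptor by which NK and effector cells leave tissues, and PRF1 encodes perforin. EOMES was most like RASGEF1A (0.89), ZAP70 (0.86), the kinase of the T cell receptor, and KLRD1 (0.85). ZEB2 had the weakest neighbours, KIAA1598 (0.68), DIAPH2 (0.66) and NCR1 (0.66). For GATA3 they were KMT2A (0.83), ZNF827 (0.81) and TRERF1 (0.79), and for FOXP3 ZNF672 (0.82), CBX6 (0.79) and MAP3K14 (0.76). IKZF2 was most like KLF12 (0.89), CBLB (0.88) and CAMK2D (0.87). TCF7 was most like CDC25B (0.92), NOL4L (0.92) and the DNA methyltransferase DNMT3A (0.91), LEF1 like RASGRF2 (0.91), CAMK4 (0.89) and SCMH1 (0.87), and BACH2 like FOXO1 (0.88), ARFGEF2 (0.88) and ARHGEF7 (0.88). FOXO1, which maintains naive T cells, fell by 0.53 on the log2 scale from day 0 to day 14 (adjusted p = 1.94e-06 from limma).

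More effector T and NK cell genes rose than fell, most of them by day 14. Of 20 effector T and NK cell genes 17 were found and tested. Between day 0 and day 3, 10 rose and 1 fell (median log2 change 0.57), from day 0 to day 14, 14 rose and 1 fell (median 1.02, or 0.59 without TMM), and between day 3 and day 14, 8 rose and 0 fell (median 0.42, or 0.05 without TMM). Of all genes, 10.1%, 23.0% and 13.9% rose in these comparisons. TBX21 and EOMES were not called in the last of these comparisons. When animals 7, 11 and 15 were left out, 2 rose and 0 fell on day 3 (median 0.44), 13 rose and 1 fell by day 14 (median 0.86), and 7 rose and 0 fell from day 3 to day 14 (median 0.43). PRF1 went from 16.8 ± 7.11 FPKM on day 0 to 32.8 ± 20.2 on day 3 (SD, n = 15) and was higher in 15 of 15 animals (log2 change 0.90, adjusted p = 4.82e-04 from limma), and NKG7, a cytotoxic granule protein, rose by 0.67 (adjusted p = 0.00208). On day 14 the granzyme genes GZMA and GZMH were higher than on day 0 by 2.33 and 1.51 (adjusted p = 2.36e-07 and 1.13e-06). GZMA and GZMK also rose from day 3 to day 14, by 1.36 and 0.76 (adjusted p = 3.95e-04 and 0.00192). The gene that fell was IL18RAP, a chain of the interleukin 18 receptor, by 1.57 on day 3 and by 2.04 on day 14 (adjusted p = 0.00291 and 3.35e-05). Its day 0 level was 73.2 ± 82.3 FPKM, and without animals 7, 11 and 15 the day 3 change was −0.94 and not called (adjusted p = 0.0599), while the day 14 change kept its call (adjusted p = 8.16e-04). The summed FPKM of the list ranged from 260 to 1320 on day 0, 387 to 1413 on day 3 and 603 to 2622 on day 14.

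Naive and central memory genes were called in both directions. Of 15 genes 13 were tested: 1 rose and 2 fell from day 0 to day 3 (median −0.14), 1 rose and 3 fell between day 0 and day 14 (median −0.15, or −0.57 without TMM), and 1 rose and 3 fell from day 3 to day 14 (median 0.03, or −0.35 without TMM), beside 19.2%, 44.0% and 23.8% of all genes called. With animals 7, 11 and 15 left out, 1 rose and 4 fell, 1 rose and 1 fell, and 2 rose and 3 fell in these comparisons. IL7R, the interleukin 7 receptor, fell by 0.31 on day 3. CCR7, the lymph node homing receptor, fell by 0.27 from day 0 to day 14 (adjusted p = 0.0327), and PECAM1 by 0.28 from day 3 to day 14. The genes that rose were AQP3 on day 3 (1.11), which fell again by 0.84, and LRRN3 on day 14 (0.59 from day 0 and 0.60 from day 3), both under 1 FPKM on average.

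Among 39 other transcription factors of T cells, all tested, more fell than rose. Between day 0 and day 3, 4 rose and 9 fell (median −0.01), from day 0 to day 14, 7 rose and 14 fell (median −0.10), and between day 3 and day 14, 1 rose and 6 fell (median −0.15). The shares of all genes called were 19.2%, 44.0% and 23.8%, the last of which is above the share of these factors. With animals 7, 11 and 15 left out, the rises and falls were 3 and 4, 3 and 12, and 2 and 10. KLF2, a factor of quiescent and recirculating T cells, fell from 141 ± 37.5 FPKM on day 0 to 90.1 ± 18.9 on day 3 and 80.0 ± 10.5 on day 14, and was lower in 15 of 15 animals in both comparisons (adjusted p = 3.47e-04 and 1.55e-06 from limma). ZEB1, the relative of ZEB2, fell by 0.58 on day 3 (adjusted p = 7.15e-05), lower in 15 of 15 animals, while ZEB2 changed by 0.00. ID2, which favours effector cells, rose by 0.68 from day 0 to day 14 (adjusted p = 4.64e-06, or 0.25 without TMM), and by 0.27 from day 3, a value that turned to −0.11 without TMM. BHLHE40 rose by 0.54 on day 3 and by 0.53 between day 0 and day 14 (0.11 without TMM), and STAT6, the signal carrier of interleukin 4, by 0.31 on day 3. FOXO1 and NFATC1 fell by 0.29 and 0.54 from day 3 to day 14.

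Genes linked to the uncalled factors were called at shares that can be set beside the 19.2%, 44.0% and 23.8% of all genes. Of 9 type 2 helper genes 8 were tested, of which 1 rose from day 0 to day 3 and 3 rose and 1 fell between day 0 and day 14 (median 0.27, or −0.05 without TMM), and 2 rose and 1 fell from day 3 to day 14 (median −0.00). Without animals 7, 11 and 15, 2 rose and 1 fell by day 14, and 1 rose and 1 fell from day 3 to day 14. PTGDR2 rose by 0.64 on day 3 and by 0.60 on day 14, and IL17RB by 0.99 on day 14 (0.20 and 0.62 on day 14 without TMM), while IL4R, the receptor for interleukin 4, fell by 0.27. PTGDR2 is also carried by basophils. Between day 0 and day 14, 4 of 6 basophil markers rose and 0 fell, or 3 rose without animals 7, 11 and 15. From day 3 to day 14, HPGDS and IL17RB rose by 0.46 and 0.54 (0.11 and 0.20 without TMM) and IL4R fell by 0.22, and IL17RB lost its call without animals 7, 11 and 15 (0.41, adjusted p = 0.0996). All 14 regulatory T cell genes were tested: 1 rose and 2 fell between day 0 and day 3 (median 0.02), 3 rose and 0 fell from day 0 to day 14 (median 0.01), and 3 rose and 0 fell between day 3 and day 14 (median 0.04). Without TMM these medians were −0.02, −0.38 and −0.31. With animals 7, 11 and 15 left out, 2 regulatory genes also fell by day 14, and 4 rose from day 3 to day 14. ICOS and CTLA4, receptors that FOXP3-bearing cells hold in quantity, fell by 0.55 and 0.39 on day 3, when LAG3 rose by 0.46, a call lost without animals 7, 11 and 15 (0.40, adjusted p = 0.0952). TIGIT rose by 0.57 from day 0 to day 14 and by 0.44 from day 3, or by 0.15 and 0.06 without TMM. TNFRSF18 rose by 0.38 from day 0 and ICOS by 0.38 from day 3, and these became −0.01 and −0.00 without TMM. Of the 9 pan-T cell genes, CD28 fell by 0.32 on day 3, CD3D rose by 0.61 from day 0 to day 14 (0.19 without TMM), and CD3D and CD3G rose from day 3 to day 14 by 0.58 and 0.29, or 0.19 and −0.09 without TMM. With animals 7, 11 and 15 left out, 0 pan-T cell genes rose and 3 fell on day 3, 1 rose and 3 fell by day 14, and 3 rose and 0 fell from day 3 to day 14.

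**Figure D5:**
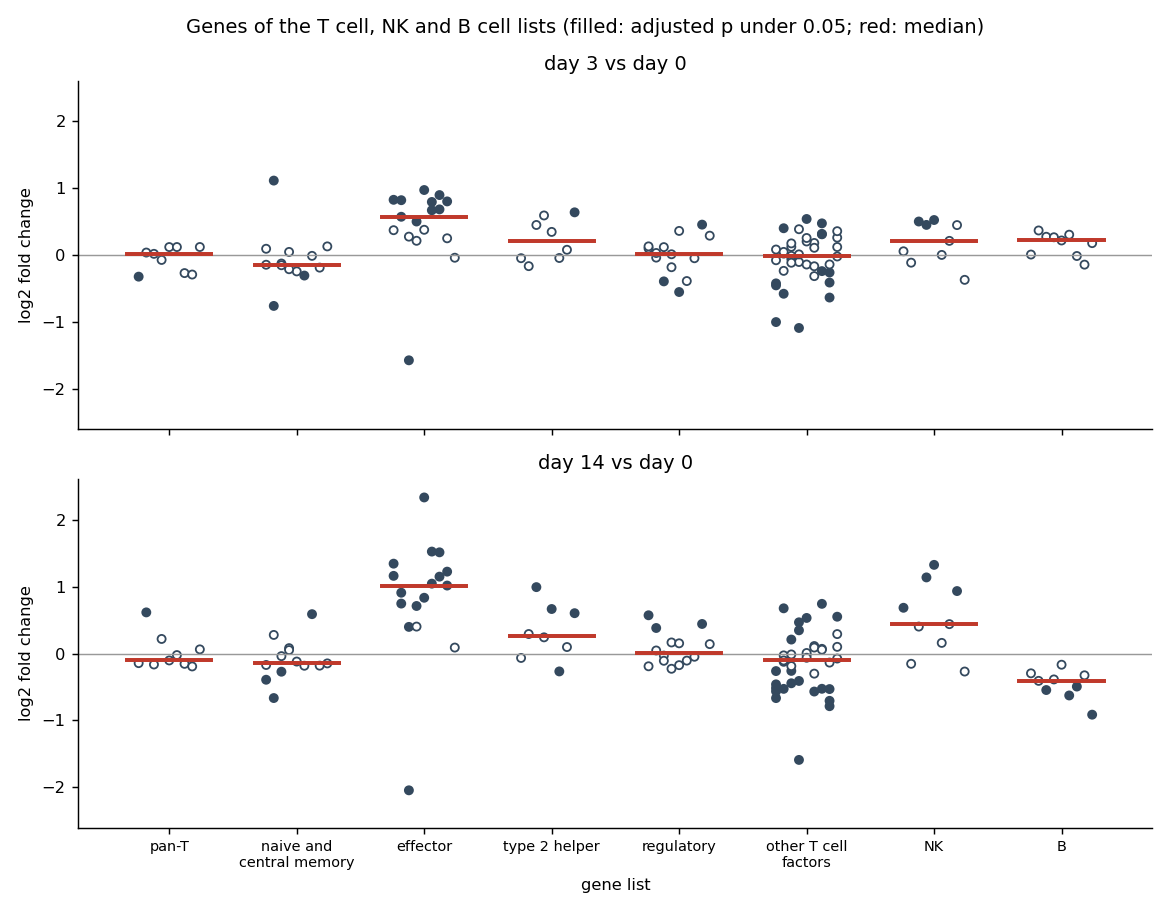
Log2 fold change (y axis) of every tested gene of 8 lists on day 3 vs. day 0 (upper panel) and day 14 vs. day 0 (lower panel), TMM-scaled; filled points have an adjusted p-value under 0.05 and red bars are medians. The effector list has medians of 0.57 and 1.02 and the pan-T list of 0.02 and −0.10, while the B cell list has a median of −0.41 on day 14.

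Markers of other blood cells were also called, some at about the share of all genes. Of all genes, 19.2% were called on day 3 (10.1% up and 9.01% down) and 44.0% by day 14 (23.0% up and 21.0% down). From day 3 to day 14 the share was 23.8% (13.9% up and 9.81% down). Of 10 monocyte markers, 4 were called by day 14, which is no higher than the share of all genes. By day 14, 11 of 12 neutrophil markers fell (median −1.30, or −0.99 with 8 called without animals 7, 11 and 15), 6 of 9 platelet markers rose (median 0.77, with 2 called without these animals), 3 of 10 monocyte markers fell and 1 rose (median 0.05, or −0.38 without TMM), 1 of 3 plasmacytoid dendritic cell markers fell and 1, LILRA4, rose (0.31, or −0.09 without TMM), and 4 of 6 pan-leukocyte markers fell (median −0.40). From day 0 to day 3, 11 of 12 erythroid and 9 of 9 platelet markers rose and 8 of 12 neutrophil markers fell (median −0.98), while 4 of 10 monocyte markers rose. With animals 7, 11 and 15 left out, 2 neutrophil markers fell on day 3 (median −0.50) and 7 erythroid markers rose. By day 14, 2 monocyte markers then rose and 2 fell (median 0.22), and 3 pan-leukocyte markers fell (median −0.23). From day 3 to day 14, the interval of the TCF7 and BACH2 falls, 6 of 9 platelet markers fell (median −0.95), 6 of 10 monocyte markers fell and 1 rose (median −0.45), and 7 of 12 erythroid markers rose (median 1.09). Without animals 7, 11 and 15, 7 monocyte markers fell and 0 rose in this interval, and 6 erythroid markers rose. Their part in the changes of the 9 factors was not tested beyond the references above.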

How the data were processed

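Whole blood RNA of 15 vervets was sequenced on days 0, 3 and 14 (45 stranded, ribosome- and globin-depleted libraries). The authors aligned the read pairs to Chlorocebus_sabeus 1.1 with STAR, counted fragments per gene with HTSeq and deposited FPKM; bcl2fastq 2.17 is named in the submitters' processing notes. Values were whole multiples of 1 fragment (100% of 1011768 values above 0, within 0.02), which gave the fragment numbers behind each value and the depth. Genes above 0.5 CPM in at least 3 samples were kept, FPKM were scaled by TMM, 0.1 was added, and limma 3.58.1 in R 4.3.3 compared log2 values over all 45 samples, with day and animal as terms. The labels name the animal of each sample. After day means were removed, 2 samples from 1 animal had a mean r of 0.33 across genes, and 2 from different animals one of −0.04. With the animal as a term, the p-values measure how far the changes between days differ among animals, each with 1 library per day. Ratios were compared by exact sign-flip tests (scipy 1.17.1). The fit was tested on simulated data.

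The members and gene lists were chosen with earlier results of these data known. Named genes are the 9 factors, the 3 genes most correlated with each, and the 2 called genes with the lowest adjusted p-value per T, NK or B cell list, comparison and direction, except 1 gene that is not reported here. The other marker lists are given by counts, and LILRA4, FCER1G and TYROBP were named after their values were seen. The alternatives were no replicate block, no TMM, a pan-T cell reference, pseudocounts of 1 and 0.01, no filter, RNA integrity as a covariate, limma voom on the fragments, and each animal left out. NK and B cell references and leaving out animals 7, 11 and 15 together were chosen after seeing the data. Genes are known by symbol alone, and no sequence or coordinate is given because no genome of the authors' build was used here.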

Additional observations from a re-analysis of the deposited data

How the results depend on the processing

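The number of factors called, 3 (days 0 to 3), 5 (days 0 to 14) and 2 (days 3 to 14), moved with several choices. Without the replicate block, that is without pairing by animal, 1 was called on day 3 and 1 on day 14 vs. day 3, and 4 results in all lost their call. Without TMM it was 1 on day 3 and 6 on day 14 vs. day 3. No filter on low values, and RNA integrity as a covariate with the replicate block, each left 1 on day 14 vs. day 3. With that covariate, the changes of TBX21, EOMES, LEF1 and BACH2 from day 0 to day 14 were 0.81, 0.50, −0.39 and −0.64. All 4 kept their call (limma adjusted p = 6.87e-04, 0.0209, 0.0123 and 0.0130), whereas TCF7 lost its own. Leaving out 1 animal at a time gave counts between 2 and 3, 4 and 6, and 1 and 2. Of the 27 single changes, 27 kept their side of the threshold with a pseudocount of 1 or 0.01 and with voom, and 26 with the T cell reference, while without TMM 3 lost their call and 7 gained one. All 18 ratio results kept their side of the threshold without TMM and with either pseudocount, and 17 of them did without animals 7, 11 and 15. With the B cell reference, 4 changes turned in sign, LEF1 between day 0 and day 14 (0.0017), TCF7 between day 3 and day 14 (0.083), LEF1 between day 3 and day 14 (0.48, called with adjusted p = 0.0173) and TCF7 on day 3 (−0.09). That scale follows the B cell markers, whose median log2 change was −0.41 and −0.65 in the day 14 comparisons but 0.22 on day 3. The cause of the other shifts was not tested.

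Over all genes the calls were 3592, 8249 and 4455 in the 3 comparisons. They were 2292 for days 0 to 3 and 2498 for days 3 to 14 without the replicate block, 9574 on day 14 vs. day 3 without TMM, 4069 and 1840 in the day 14 comparisons with RNA integrity, 2192 on day 3 with the T cell reference, 1990 on day 3 without animals 7, 11 and 15, and 2656 on day 14 vs. day 3 without animal 8. The NK cell reference gave 14720 and 10620 in the day 14 comparisons, of which 13431 and 9853 were falls, and the B cell reference gave 28 for days 0 to 3 and 12988 for days 3 to 14, of which 12972 were rises. Without TMM the rises and falls were 1742 and 9360 for days 0 to 14 and 933 and 8641 for days 3 to 14, against 4317 and 3932, and 2615 and 1840, with it. With the T cell reference they were 1802 and 390 on day 3, against 1902 and 1690, and 1456 and 1839 on day 14 vs. day 3. Depth limits FOXP3 most, with a median of 24 fragments.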
